A study of Mus musculus with 2 samples.

Results

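The complement and coagulation factors described here are 35 genes, out of 18193 genes that the array annotation names with a single symbol. They were chosen as a list of 38 plasma complement components, clotting factors, anticoagulants and fibrinogen chains, and every probe set that carries 1 of these symbols alone was used, 49 in all. The other 3 listed genes (C3, C4b and Cfd) could not be matched in this way and were not analysed here. From knowledge of where each protein is made, 31 of the 35 were classed as hepatocyte-made and 4 as macrophage-made, the latter being the C1q chains C1qa, C1qb and C1qc and properdin (Cfp).

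Liver RNA was hybridised to 2 Affymetrix arrays, 1 for Bglu3 congenic mice (labelled with both that name and the strain C57BL/6) and 1 for C57BL/6 apoE-/- control mice. Both groups ate chow from weaning at 3 weeks of age, received a Western diet from 6 weeks of age for 12 weeks, and carry the label hyperglycemia. Bglu3 is a blood glucose locus of mouse chromosome 1, and congenic mice hold a stretch of donor chromosome on the background of a second strain. The donor strain, the ends of the segment, the apoE genotype of the congenic mice, the sex and the number of mice behind each array are not stated in the labels. There were no replicates, so each difference below compares 2 arrays, has no replicate check and has no test.

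Complement is a cascade of plasma proteases that tags and lyses microbes. It starts from C1q bound to antibody (the classical pathway), from mannose-binding lectins bound to sugars (the lectin pathway) or from the alternative pathway that properdin stabilises, and ends in a pore built from C5 to C9. Coagulation is a second cascade, in which proteases activate one another until thrombin cuts fibrinogen into fibrin. The hepatocyte secretes most of these proteins, whereas C1q comes mainly from macrophages, which in liver are largely Kupffer cells, and properdin from myeloid cells.

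Hepatocyte markers were compared between the 2 arrays. All 12 hepatocyte markers with a probe set lay within 1.5-fold, with a median log2 difference of 0.03, a highest value of 0.13 (albumin, Alb), followed by Cebpa at 0.09, and lowest values of -0.32 (Tdo2) and -0.26 (Hnf4a). A difference here is log2(intensity + 5) of the congenic array minus the same of the control array. A gene is given by its brightest probe set. It counts as expressed when that probe set reaches the median of its array on at least 1 array, as all 35 members did. Among the hepatocyte markers, other probe sets passed 1.5-fold for Hnf4a (as low as -0.59) and for Apob (0.64). Over all probe sets, the congenic array had a median intensity of 19.3 and the control array of 19.7.

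Upstream DNA of 4 members is shown because these genes carry the contrasts described below: 2 C1q chains that were higher together, the single hepatocyte-made gene that stood out, and a fibrinogen chain that did not. Each run is the 250 bases before the annotated start on the gene's strand, from RefSeq annotation of GRCm38.p6, at chr4:136886201-136886450 (minus strand) for C1qb, chr4:136892915-136893164 (minus) for C1qc, chr15:4726960-4727209 (plus) for C6 and chr3:83049864-83050113 (minus) for Fgb. Capitals mark matches on either strand to GAGGAA (a core bound by Ets family factors), CTGGGAA (an interleukin 6 response element), GTTAAT (a partial site of HNF1, a hepatocyte factor) and TTGCNNAA (a C/EBP site).
C1qb: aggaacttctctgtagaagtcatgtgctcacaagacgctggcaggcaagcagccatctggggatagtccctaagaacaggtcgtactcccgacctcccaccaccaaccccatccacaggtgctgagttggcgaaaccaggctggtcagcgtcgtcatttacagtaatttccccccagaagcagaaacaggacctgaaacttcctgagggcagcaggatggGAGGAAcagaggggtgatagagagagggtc
C1qc: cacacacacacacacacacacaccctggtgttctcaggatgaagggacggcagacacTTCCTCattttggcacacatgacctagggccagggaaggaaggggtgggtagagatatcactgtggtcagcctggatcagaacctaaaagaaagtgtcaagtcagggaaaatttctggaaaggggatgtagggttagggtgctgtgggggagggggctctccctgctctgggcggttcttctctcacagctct
C6: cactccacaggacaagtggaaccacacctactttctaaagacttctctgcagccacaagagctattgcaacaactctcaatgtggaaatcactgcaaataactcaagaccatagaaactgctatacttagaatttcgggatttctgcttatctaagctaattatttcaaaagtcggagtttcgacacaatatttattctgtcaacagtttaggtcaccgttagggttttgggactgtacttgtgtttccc
Fgb: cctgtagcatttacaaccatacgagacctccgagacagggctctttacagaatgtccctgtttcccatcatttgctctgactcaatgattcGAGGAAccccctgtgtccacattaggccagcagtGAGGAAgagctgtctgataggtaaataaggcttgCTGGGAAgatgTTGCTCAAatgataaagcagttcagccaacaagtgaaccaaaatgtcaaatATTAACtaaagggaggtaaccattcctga
GAGGAA begins 30 bases before the start of C1qb, and its reverse complement lies 193 bases before that of C1qc. Fgb holds all 4 words, with CTGGGAA at 91, TTGCNNAA at 80 and the reverse complement of GTTAAT at 29 bases before its start. None of these letters occurs in the window of C6.

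Of the 35 members, 27 had such an upstream window in the table. GAGGAA was in 2 of the 3 macrophage-made (C1qb and C1qc, not Cfp) and 2 of the 24 hepatocyte-made members (F7 and Fgb), and in 23.3% of all 32851 windows. GTTAAT was in 8 of the 24 hepatocyte-made members (among them C8a, C8b, Fga and Fgb), in 1 of the 3 macrophage-made members (Cfp) and in 6.43% of all windows. TTGCNNAA was in 6 of the 24 against 9.56% of all windows, CTGGGAA in 5 of the 24 (C1ra, F9, Fgb, Fgg and Masp2) against 9.1%, and each was in 0 of the 3 macrophage-made members. A match describes letters and is not a known binding site.

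At a size of 1.5-fold or more, 5 members were higher on the congenic array and 0 were lower. These were C1qa, C1qb, C1qc, Cfp and C6, so the count took in 4 of 4 macrophage-made members and 1 of 31 hepatocyte-made members. Of all 12613 expressed genes, 7.59% were higher and 5.26% lower by this size. The members are strongly expressed, and among the 3355 genes whose mean intensity lay within the members' range, 3.22% were higher and 2.68% lower. The hepatocyte-made count is near that share. The median difference was 0.73 for the macrophage-made and 0.06 for the hepatocyte-made members, beside 0.04 for all expressed genes.

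**Figure D1:**
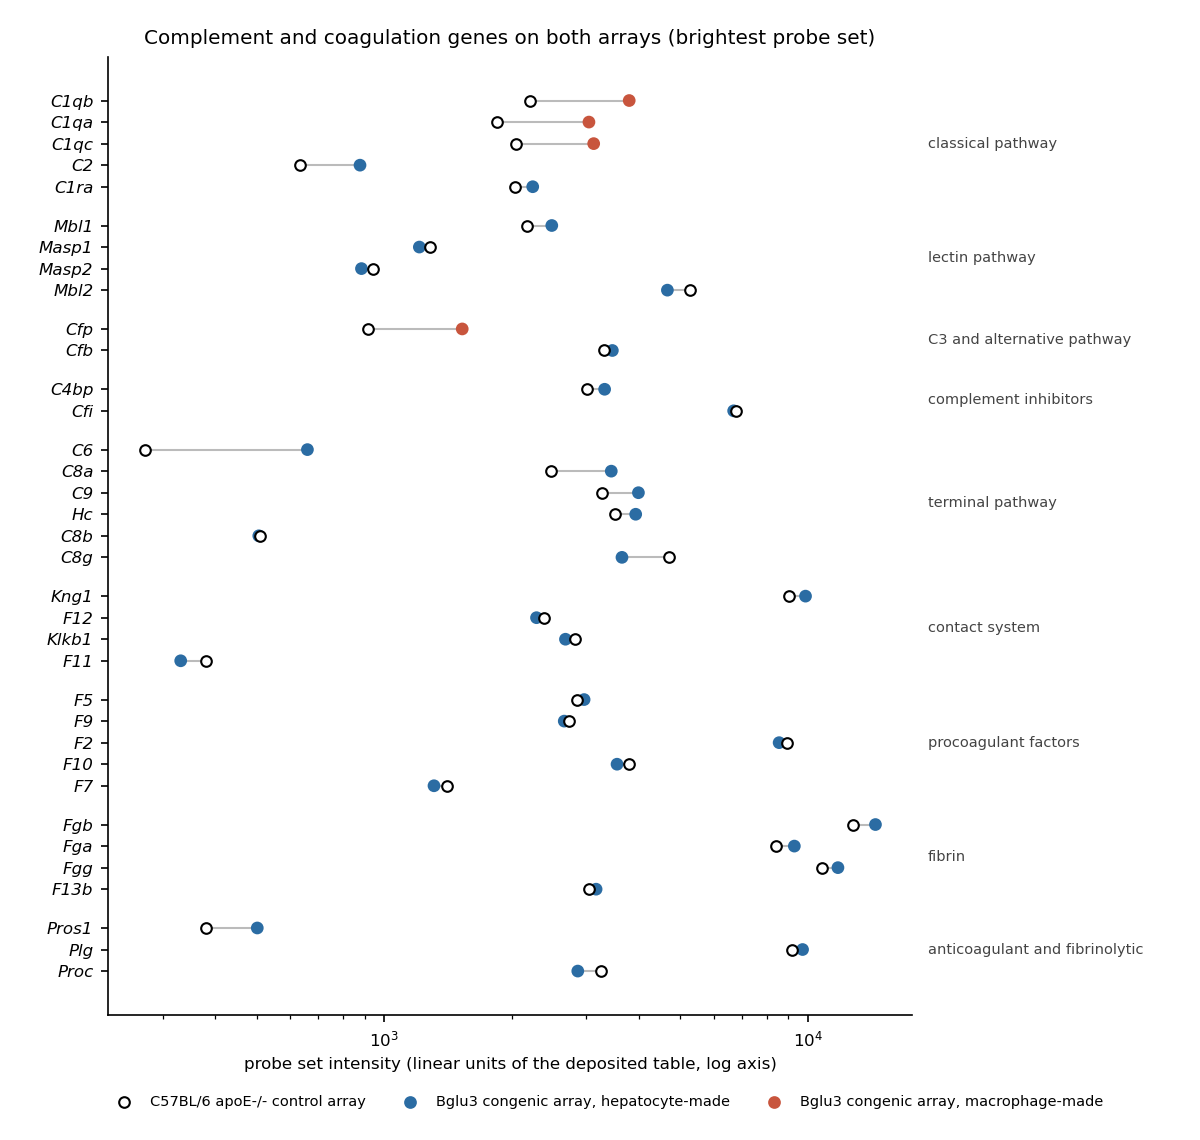
Intensity of each member's brightest probe set on the control array (open circles) and the congenic array (filled circles, red for macrophage-made and blue for hepatocyte-made), on a log axis, grouped by role. The widest gaps are those of C6 (659 against 272) and of the C1q chains and Cfp, while positions of different genes on this axis are not comparable, because probe sets bind with different strength.

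The 3 chains of C1q, the recognition molecule of the classical pathway, were higher together. C1qa had a congenic intensity of 3044 and a control intensity of 1844 (log2 difference 0.72). C1qb stood at 3789 against 2205 (0.78) and C1qc at 3124 against 2050.2 (0.61). The chains assemble into 1 protein, their genes are neighbours on chromosome 4 with no protein-coding gene between them, and their differences spanned 0.17. All 5 C1q probe sets were higher, between 0.61 and 0.96, the highest being a C1qb probe set at 1889.6 against 967. As a yardstick of technical disagreement, probe sets of 1 gene differed, among the 1298 brightest genes with several of them, by an SD of 0.26 on this scale, which says nothing about animals.

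The hepatocyte-made members of the same pathway differed less. C1ra, the protease that C1q activates, stood at 2243 against 2041 (log2 difference 0.14). C2, which forms part of the classical C3 convertase, stood at 877 against 634 (0.47), and its 3 probe sets lay between 0.45 and 0.53. C2 was thus just short of the 1.5-fold size, at 0.58 on the log2 scale, together with C8a at 0.47, while C1qc was the member just past it. In mouse, macrophages also make C2, so its classing as hepatocyte-made is a simplification.

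Properdin, the stabiliser of the alternative pathway convertase, was higher by its brightest probe set, with 1529 against 916 (log2 difference 0.74). A second, dim probe set read 20.2 against 19.9 (0.02), near the array median. Cfb, the protease of the alternative pathway, is made by hepatocytes and, like C2, also by macrophages, and stood at 3457 against 3305 (0.06). The bright probe set of properdin thus lay within the range of the C1q chains, and Cfb lay near 0.

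Lectin pathway members all lay within 1.5-fold. Mbl1 and Mbl2, the mannose-binding lectins, differed in opposite directions at 0.19 (2488 against 2175) and -0.18 (4662 against 5264). Their proteases Masp1 and Masp2 stood at -0.08 and -0.09. The 4 expressed probe sets of Masp1 ranged from -0.14 to 0.28, and a dim one, below the filter, read 7.88 against 13.5. The soluble inhibitors were flat as well, with Cfi, which cleaves C3b and C4b, at -0.02 (6683 against 6756) and C4bp, its cofactor, at 0.14 (3315 against 3014).

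The terminal pathway held both extremes of the whole set. C6, which joins C5b to begin the lytic pore, stood at 659 in congenic and 272 in control liver, a 2.40-fold difference (log2 1.26). Of all expressed genes 128 (1.01%) were at least as high, and 15 (0.447%) of those in the members' range of intensity. C6 has 1 probe set here, so no other probe set bears on its value.

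C8g, the lipocalin chain of C8, was the lowest member at 3643 against 4711 (log2 difference -0.37). C8a, to which it is linked by a disulphide bond, was among the highest at 3437 against 2477 (0.47), and C8b stood at 506 against 509 (-0.01). The chains of C8 thus spanned 0.84, compared with 0.17 for C1q and 0.05 for fibrinogen. C8a and C8b, which are neighbours on chromosome 4, spanned 0.48, and C8g lies on chromosome 2. Hc, which encodes C5 and is inactive in some inbred strains, stood at 3924 against 3504 (0.16), and C9, which polymerises into the pore wall, at 3983 against 3274 (0.28).

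**Figure D2:**
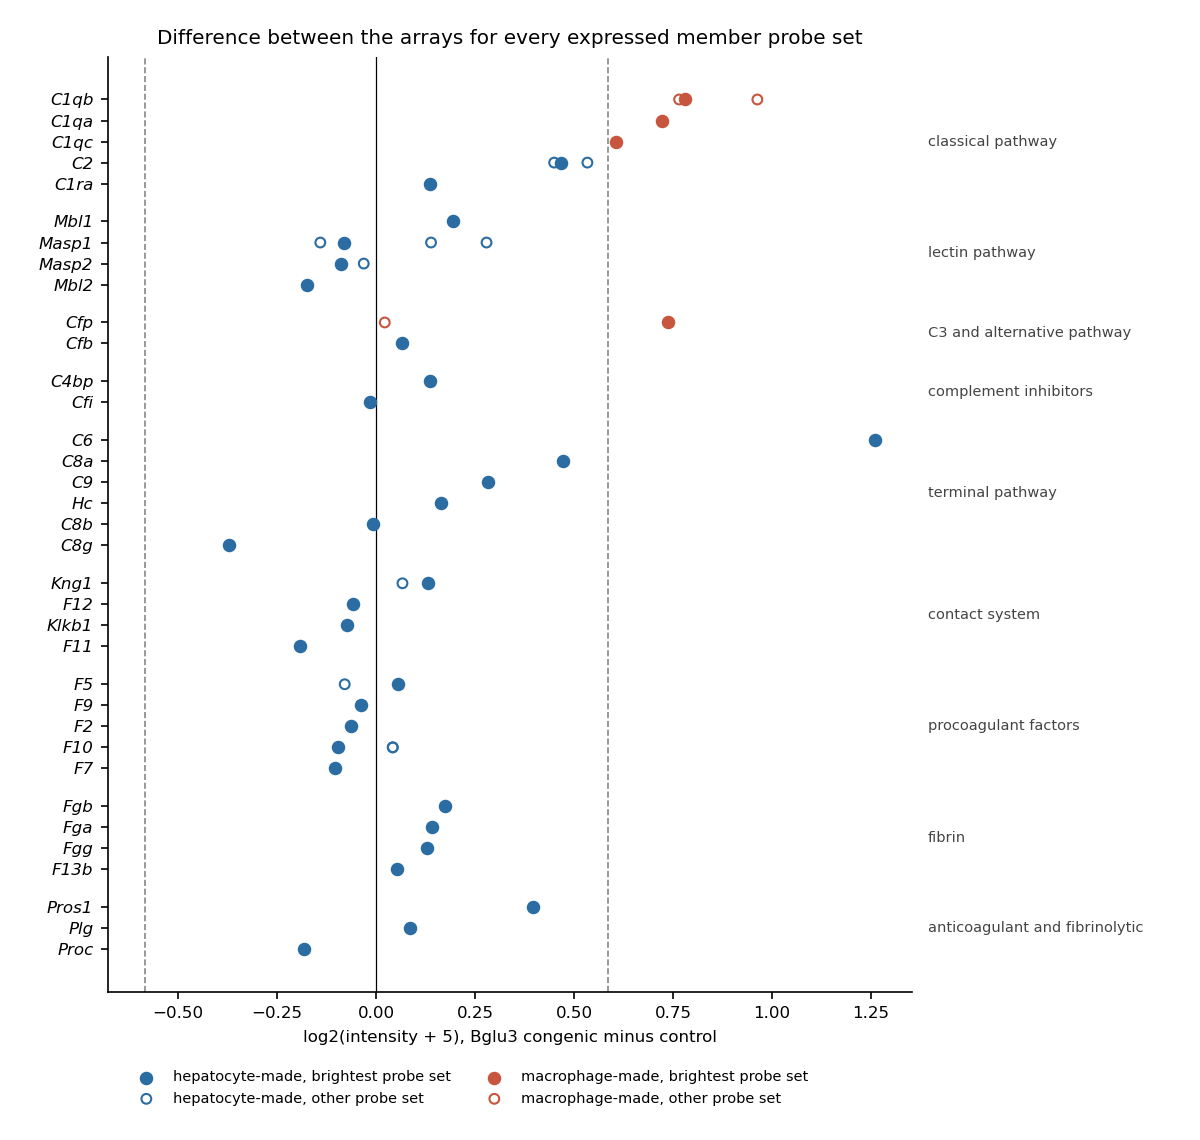
Log2 difference of every expressed member probe set, congenic minus control, with filled circles for the brightest probe set of a gene and open circles for its other probe sets, and dashed lines at 1.5-fold. The 4 macrophage-made genes (red) and C6 lie beyond the line at their brightest probe set, and the other hepatocyte-made genes (blue) lie between -0.37 and 0.47.

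All 16 coagulation members lay within 1.5-fold, with a median of 0.01 and a range from -0.19 (F11) to 0.40 (Pros1). The contact system, which starts clotting on foreign surfaces, gave F12 at -0.06 (2289.5 against 2384), F11 at -0.19 (331 against 379), prekallikrein (Klkb1) at -0.07 (2679 against 2817) and kininogen (Kng1) at 0.13 (9875 against 9013). Of these, only Kng1 was above 0, and its other probe set stood at 0.07.

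The 5 procoagulant factors lay close together, between -0.10 and 0.06. F2, which encodes prothrombin, stood at 8556 against 8935 (log2 difference -0.06), and F9, factor IX, at 2662 against 2735 (-0.04). F7 and F10, which are neighbours on chromosome 8 and encode the protease that tissue factor binds and the one that forms thrombin, stood at -0.10 and -0.09. The other 2 probe sets of F10 read 0.04 each. F5, the cofactor of F10, stood at 2965 against 2852 (0.06), with a second probe set at -0.08. All 5 differences were smaller than the technical SD of 0.26.

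The fibrinogen chains, which are neighbours on chromosome 3, differed by nearly the same amount. Fga stood at 9293 against 8423 (log2 difference 0.14), Fgb at 14440.3 against 12799.5 (0.17) and Fgg at 11777 against 10780.3 (0.13). The Fgb value was the highest of all probe sets on the congenic array, and whether signal saturates at this level was not tested. F13b, the carrier chain of the factor that cross-links fibrin, stood at 3165 against 3053 (0.05).

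Among the brakes on clotting, Proc, the anticoagulant protease protein C, stood at 2865 against 3251 (log2 difference -0.18) and its cofactor Pros1 at 502 against 379.9 (0.40). Plg, the precursor of the fibrin-cleaving plasmin, stood at 9718 against 9164 (0.08). Of the 6 vitamin K dependent members (F2, F7, F9, F10, Proc and Pros1), 5 were below 0 and only Pros1 above, with a median of -0.08. None of the 6 reached 1.5-fold, and the 5 below 0 differed by less than the technical SD of 0.26. Of all 12613 expressed genes, 5529 were below 0.

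Over all 48 expressed member probe sets, 7 were higher by 1.5-fold or more and 0 lower, against 7.22% higher and 6.04% lower among 20973 expressed probe sets. The 7 were the 5 of C1q, 1 of Cfp and that of C6. Several probe sets were present for 8 members, and Cfp was the one in which they disagreed on the call, with a span of 0.71. Without C6, the 30 remaining hepatocyte-made members ran from -0.37 to 0.47, and 25 of the 31 lay within 0.2 of 0.

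**Figure D3:**
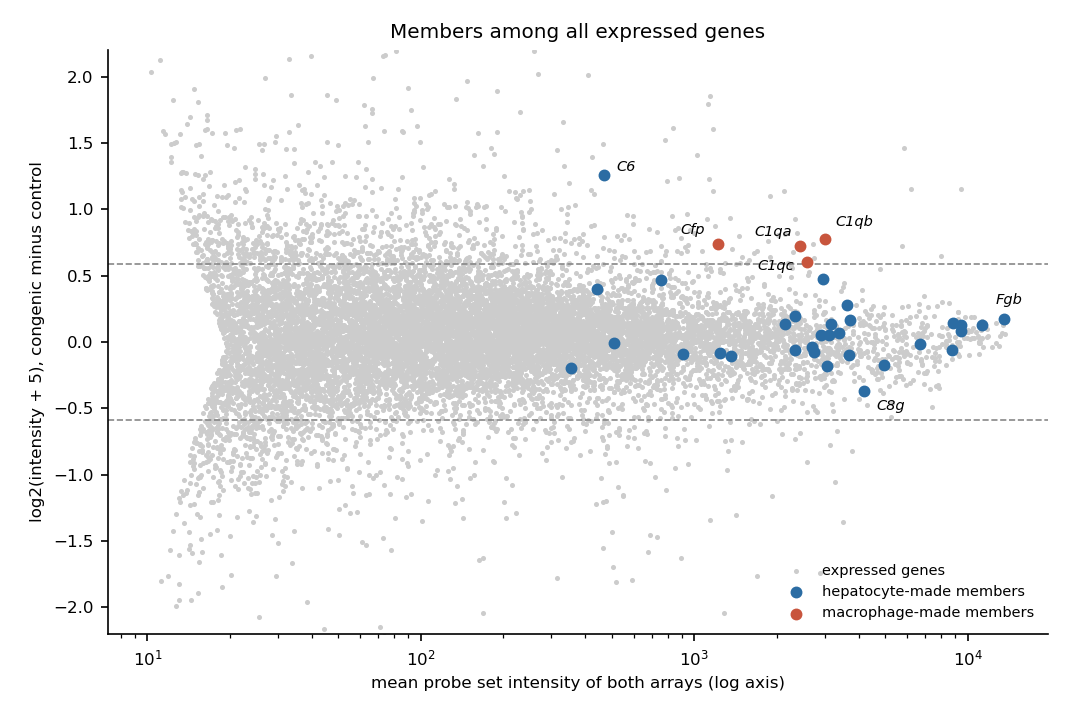
Log2 difference (congenic minus control) against mean intensity on a log axis for all expressed genes (grey), hepatocyte-made members (blue) and macrophage-made members (red), with dashed lines at 1.5-fold; 33 genes lie beyond the plotted range of 2.2 in either direction. The members sit in the brighter part of the distribution, where the grey cloud is narrow, and C6, Cfp and the C1q chains lie above its upper line.

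Macrophage markers were spread widely, and 0 of 16 lay within the range of the macrophage-made members. Of 16 markers that are not complement genes, 8 were higher by 1.5-fold or more and 0 lower, with a median of 0.73. All expressed genes gave 7.59% higher and 5.26% lower, and those in the members' range of intensity 3.22% and 2.68%. Their summed intensity was 26881 against 20139, a sum weighted toward the probe sets with the strongest signal, such as Cd5l (7404 against 6501) and Lyz2 (4817 against 4053). The scavenger receptor Marco (1.85) and the Kupffer cell receptor Timd4 (1.66) were the highest, and the mannose receptor Mrc1 (0.17) and the iron exporter Slc40a1 (-0.23) the lowest. The mean of the C1q chains, 0.70, lay 0.03 below the markers' median. That median falls in a gap between 8 markers above C1qb and 8 below C1qc. Among the latter were Cd5l (0.19), Lyz2 (0.25) and Cd163 (0.30), which was dim at 25.5 against 19.8. Also among them, Clec4f (0.58) and Cd68 (0.54) lay close below C1qc and just short of 1.5-fold. In liver RNA, more cells of a type and more RNA per cell cannot be told apart, and the part of macrophage number in these differences was not tested.

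Markers of other cell types were counted as well, beside 7.59% higher and 5.26% lower by 1.5-fold or more of all expressed genes. Of 10 neutrophil markers 7 were higher, with a median of 1.94, between Csf3r (0.01), Cxcr2 (0.12) and the granule genes Prtn3 (3.20) and Camp (3.78), and their summed intensity was 4242 against 1349. For 4 of the 7 (Camp, Ltf, Mpo and Prtn3) the control value lay below the array median, so they entered the count through the congenic array alone, and over the 6 markers that reached the median on both arrays the count was 3 higher and the median 0.83. Human neutrophils store properdin, and their part in the Cfp difference was not tested. Of 4 expressed lymphocyte markers 3 were higher, with a median of 0.75, from Cd8a (0.39) and Ms4a1 (0.62) to Cd3g (0.88) and Cd79b (1.99), and a summed intensity of 274 against 123. Platelet markers were listed because platelets carry clotting factors. Of 8 platelet markers 3 were higher (Ppbp at 1.58, Pf4 at 0.98 and Gp9, whose control value lay below the array median). Their median was 0.35 (0.15 over the 7 that reached the median on both arrays), with Itgb3 at -0.24 and Treml1 at -0.28. The summed intensity of the 8 was 2149 against 1439, and its largest part was Clec1b at 1475 against 1007 (0.55). Of 8 endothelial markers 0 were higher and 1 lower (Lyve1, -0.64), and the median was 0.26, with Tek at 0.06, Kdr at 0.51, Cdh5 at 0.53 and a summed intensity of 3649 against 3311. Of the adipocyte markers only Adipoq was expressed (0.14).

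**Figure D4:**
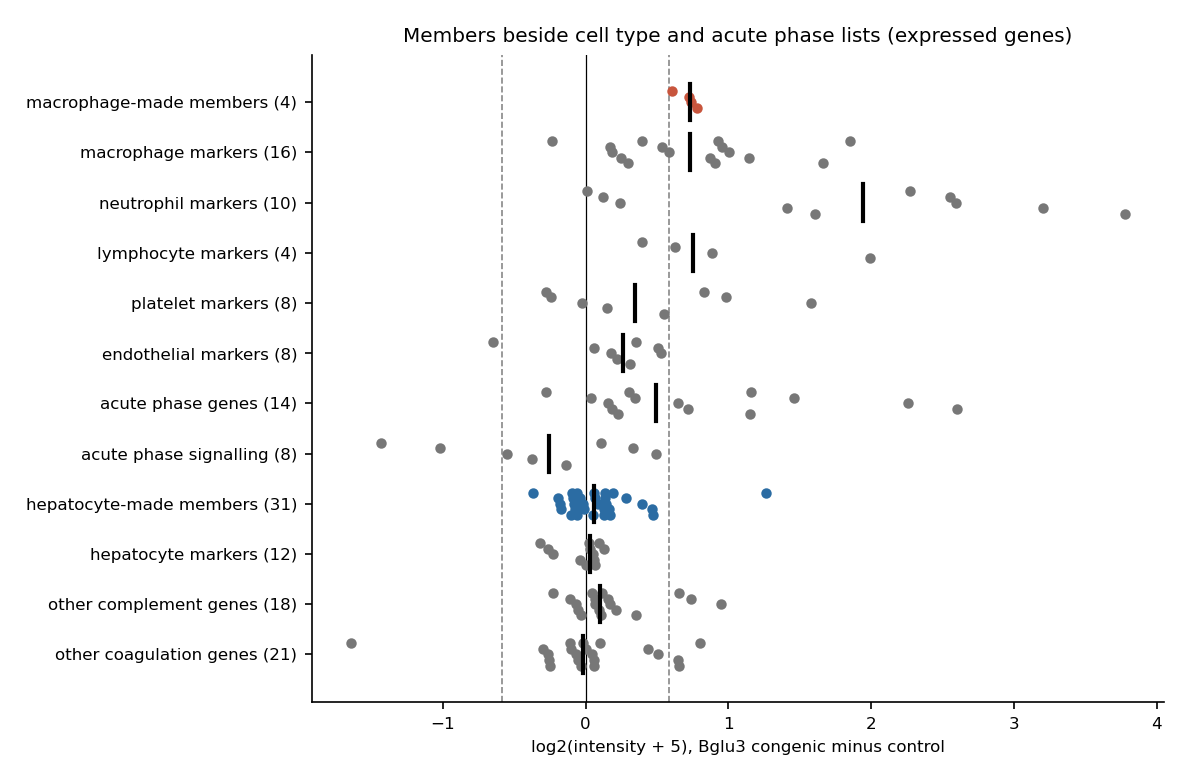
Log2 difference (congenic minus control) of each expressed gene in the member groups and in the lists set beside them, with the number of genes in brackets, black bars at the medians and dashed lines at 1.5-fold. The macrophage-made members (median 0.73) lie at the median of the macrophage markers, which are spread widely, with 0 of 16 in these members' range. The hepatocyte-made members (median 0.06) lie beside the hepatocyte markers (median 0.03).

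Some of the liver's complement and clotting proteins are acute phase reactants, so they were set beside other genes of that response. Of 14 acute phase genes 7 were higher by 1.5-fold or more and 0 lower, with a median of 0.50. All expressed genes gave 7.59% higher and 5.26% lower, and those in the members' range of intensity 3.22% and 2.68%. Orm2 (2.60) and Saa2 (2.26) were the highest acute phase genes, and Lbp (0.04) and Crp (-0.28) the lowest. Among hepatocyte-made members, the fibrinogen chains, which are acute phase proteins, stood at 0.13 to 0.17, Cfb at 0.06, C9 at 0.28 and C2 at 0.47, none past 1.5-fold. The other 7 acute phase genes were also within 1.5-fold, among them Hp (0.19) and Hpx (0.16). Of the receptor genes for interleukins 1 and 6, Il1r1, a chromosome 1 gene, stood at 269 against 735 (log2 difference -1.43) and Il6ra at 472 against 961 (-1.02), while Il6st, the signalling chain of the interleukin 6 receptor, stood at 847 against 672 (0.33). Il1r1 and Il6ra were the only ones of 8 expressed acute phase signalling genes past 1.5-fold at their brightest probe sets. Other probe sets also passed it for Socs3 (-0.71 and -0.66, brightest -0.55) and Cebpb (-0.69, brightest -0.38). Of the 8 genes, 5 were below 0 and 3 above, with a median of -0.26, and the highest were Il1b (0.49) and Il6st.

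Other genes of the complement system were counted from a list of 26, of which 22 had a probe set and 18 were expressed. Of the 18, 3 were higher by 1.5-fold or more and 0 lower, beside 7.59% higher and 5.26% lower of all expressed genes. These 3 were receptors that myeloid cells carry. Itgb2, the beta chain of complement receptor integrins, stood at 1089.9 against 562 (log2 difference 0.95). Vsig4, the Kupffer cell receptor for C3 fragments, stood at 3413 against 2044 (0.74), and C3ar1, the receptor for the C3a peptide, at 105 against 64.5 (0.66). The 3 probe sets of C3ar1 ran from -0.16 to 0.66, so its call rests on the brightest, and it was lost with a pseudocount of 20, with a filter at the 75th percentile and with the mean of expressed probe sets, each of which left 2 genes higher. Itgax, another receptor of the list, stood at 0.21, and the receptors Itgam, C5ar1 and Cr2 were below the expression filter. The 8 expressed inhibitors lay between -0.11 (Cd59a) and 0.17 (Clu). The 4 expressed components lay between 0.07 (C1s1) and 0.36 (the collectin Colec10, 359.9 against 280.3). The lowest of this list were the receptor Cd93 (-0.22), Cd59a, Cd55 (-0.07) and Cd46 (-0.05).

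Of 24 other coagulation genes, 22 had a probe set and 21 were expressed, with 3 higher and 1 lower by 1.5-fold or more. The shares of all expressed genes were again 7.59% higher and 5.26% lower. The largest difference was that of Thbd, thrombomodulin, the endothelial receptor on which thrombin activates protein C, at 76.7 against 251 (log2 difference -1.64). Procr, the endothelial protein C receptor that acts beside it, went the other way at 144 against 80.8 (0.80), while Proc itself differed by -0.18. Tissue factor (F3), which starts clotting, stood at 24.5 against 13.8 (0.65) and F13a1, the catalytic chain of factor XIII, which macrophages and megakaryocytes make, at 42.3 against 25.1 (0.65), both dim. F3 was below the median of the control array, and 2 genes were higher among the 19 that reached the median on both arrays. F13b, the chain that hepatocytes make, differed by 0.05. Serpina10, an inhibitor of factor Xa, stood at 0.51, Tfpi, which blocks tissue factor, at -0.30 with 4 probe sets from -0.45 to 0.58, Plaur, the urokinase receptor, at -0.26 and Serpind1, a thrombin inhibitor, at -0.26.

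The congenic segment lies on chromosome 1, which carries 3 members. C4bp (0.14), F5 (0.06) and F13b (0.05) all lay within 0.2 of 0. The other complement and coagulation genes on this chromosome gave the membrane inhibitors Cr1l at 0.16, Cd46 at -0.05 and Cd55 at -0.07 and the antithrombin gene Serpinc1 at -0.03 (9059 against 9251), and Cr2, a B cell complement receptor that was below the expression filter, read 14.1 against 12.0. The other 2 probe sets of Cd55 read 0.49 and 0.50. The members past 1.5-fold lie on chromosomes 4 (the C1q chains), 15 (C6) and X (Cfp). The donor segment's ends are not in the labels, so which of the chromosome 1 genes lie inside it was not tested.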

How the data were processed

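Per the labels, biotinylated cRNA was prepared from 8 µg of liver total RNA by the Affymetrix protocol. The deposited values are linear intensities of 45101 probe sets on each array, never negative. The sources used here do not say how the authors summarized and scaled these intensities, and the array medians differed by -0.03 on the log2 scale, so the intensities were used as deposited. Sample groups were taken from the strain labels.

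Probe sets were named from the platform annotation. Outside 64 control probe sets, 34945 had 1 symbol, 932 several and 9160 none. Chromosomes came from the RefSeq table of GRCm38.p6, which held all 35 member symbols. A pseudocount of 5 was added before taking log2, which shrinks differences of dim genes. Genes were represented by their brightest probe set, expressed meant reaching the 50th percentile on at least 1 array, and calls were differences of 1.5-fold (0.58 on the log2 scale). With 1 array per group there is no test, and the number of arrays limits the precision. The technical SD is that between expressed probe sets of 1 gene, in 4 classes of brightness (0.44, 0.34, 0.31 and 0.26). The procedure was tested on simulated data. Alternatives changed scaling, pseudocount, filter, probe set rule and fold size.

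The members, the gene lists and the tests were chosen with earlier results of these data known. Named are all members, the 4 highest and 4 lowest of the 2 pathway lists with their chromosome 1 genes, and the 2 highest and 2 lowest of each marker and acute phase list. Some other genes of these lists are named beside them. The comparison with genes in the members' range of intensity, and the motifs searched, were chosen after the data were seen. Analyses used Python 3.11.15, pandas 2.3.3 and statsmodels 0.14.6.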

Additional observations from a re-analysis of the deposited data

How the results depend on the processing

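Under 11 alternatives to the processing, 132 of 138 recomputed summaries and 347 of 348 recomputed member differences stayed within 1.5 times the reported count or within the technical SD (for medians, that SD divided by the root of the number of genes), and no called difference changed sign. Changes of the filter could not alter a member difference, because every member's brightest probe set passed each filter. Averaging over probe sets could not alter the difference of the 27 members with a single probe set. Those agreements were therefore fixed in advance and show nothing about stability. With 2-fold as the size, 1 member (C6) and 1 member probe set were higher, as were 0 other complement genes and 0 other coagulation genes. Thbd was the 1 other coagulation gene lower by this size. Of all expressed genes, 1.99% were higher and 1.45% lower by 2-fold. The C3ar1 call was lost under 3 alternatives, which left 2 other complement genes higher. Higher other coagulation genes fell to 1 with a pseudocount of 20 and to 1 with the 75th percentile as the filter, since F3 and F13a1 are dim. The Cfp difference was 0.38 as the mean of its expressed probe sets, which takes it below 1.5-fold. C6 ranged from 1.22 to 1.29, C1qa from 0.71 to 0.75, C1qb from 0.77 to 0.84 and C1qc from 0.60 to 0.64. Median centring moved the median of all expressed genes from 0.04 to 0.07 and quantile normalization to 0.01. No paired analysis was possible because each group has 1 array. For the same reason no array could be left out, and the spread between animals is unknown.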
